A study of Homo sapiens with 2 samples.

Results

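The BCL2 family decides at the mitochondrial outer membrane whether a stressed cell lives or dies, and 10 of its genes are described here. They were taken from the deposited expression table by gene symbol. The genes are BCL2, BCL2L1, MCL1, BCL2A1, BAX, BAK1, BBC3, PMAIP1, BCL2L11 and BID. Each matched 1 row among 60624 named genes. The samples are 2 RNA sequencing libraries of MDA-MB-231, an established human line of triple-negative breast cancer. The Control library comes from a culture kept for 24 h without the agent, and the CEL library from one kept for 24 h with 1 µM of an agent the labels call CEL. Both are cultures of the same line, and the labels name no other allele or agent. The series title speaks of exosomes from M1 macrophages, but neither library is labelled as having received them.

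The family holds proteins of opposed kinds. Survival proteins (BCL2, BCL-XL from BCL2L1, MCL1 and BFL1 from BCL2A1) bind and restrain the others. The effectors BAX and BAK oligomerise when they are freed or activated and open pores through which cytochrome c leaves the mitochondrion. The BH3-only proteins sense damage: PUMA (from BBC3), NOXA (from PMAIP1) and BIM (from BCL2L11) are mostly set by how much is made, while BID is cut by caspase-8 and links death receptors to mitochondria. Much of this control acts on protein half-life, cleavage and binding, which RNA levels do not show.

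The measurement is FPKM, the authors' read count scaled to gene length and to the library's total of reads in genes. Levels are set side by side across genes on that scale. How the deposited length was derived is not known, and the intervals below do not cover an error in it. Such an error would shift a gene's level against other genes but cancels in its FPKM ratio between the libraries. Reads in genes numbered 14821148 (Control) and 17199398 (CEL), and whole reads could be recovered for every gene above 0. Since each group is a single library, nothing here measures how far cultures vary: no difference below has a replicate check, no p-value is given, and "higher" and "lower" compare 2 libraries. All intervals are 95% and cover counting error only. All 5 markers of the line (VIM, CD44, FN1, ZEB1 and AXL) were detected, with summed levels of 2343 FPKM in Control and 2653 FPKM in CEL. The hormone receptors ESR1 and PGR had 0 reads in both. Of the other epithelial markers, KRT8, ERBB2 and EPCAM were present and CDH1 was below 1 FPKM. The 6 epithelial markers, these receptors included, summed to 635 and 705 FPKM, most of it from KRT8 (545 and 647 FPKM). ERBB2 was at 71.7 and 48.8 FPKM. The 8 leukocyte and macrophage markers summed to 4.87 and 3.75 FPKM. CSF1R and CD14 made up most of this, and CD163 and AIF1 were at 0 in both libraries. In bulk RNA, fewer cells and less RNA per cell cannot be told apart.

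Promoter sequences are shown for 3 members. BAX and BBC3 had the highest and the lowest plain FPKM ratio between the libraries, and BCL2A1 is the member that was all but undetected. Each run is the 250 bases before the RefSeq start site in GRCh38.p14, read 5′ to 3′ on the gene's strand, and capitals mark matches to the motifs named after it. A window was found in the RefSeq table for 9 of the 10 members.
BAX promoter, chr19:48954625-48954874, plus strand: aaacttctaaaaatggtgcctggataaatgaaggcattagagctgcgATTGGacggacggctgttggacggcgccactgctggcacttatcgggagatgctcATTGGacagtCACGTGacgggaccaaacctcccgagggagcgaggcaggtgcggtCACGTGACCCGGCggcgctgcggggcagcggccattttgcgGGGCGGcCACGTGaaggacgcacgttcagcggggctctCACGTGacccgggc
BBC3 promoter, chr19:47232668-47232917, minus strand: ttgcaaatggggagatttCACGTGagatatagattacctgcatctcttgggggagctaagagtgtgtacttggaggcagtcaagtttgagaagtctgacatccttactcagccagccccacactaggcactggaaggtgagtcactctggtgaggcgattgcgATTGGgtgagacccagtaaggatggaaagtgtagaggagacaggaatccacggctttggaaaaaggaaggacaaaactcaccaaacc
BCL2A1 promoter, chr15:79971197-79971446, minus strand: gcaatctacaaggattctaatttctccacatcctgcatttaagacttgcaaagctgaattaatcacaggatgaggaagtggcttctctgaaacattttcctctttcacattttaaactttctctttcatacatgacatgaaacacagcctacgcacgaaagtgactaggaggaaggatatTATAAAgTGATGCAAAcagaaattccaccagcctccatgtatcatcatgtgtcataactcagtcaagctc

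Motifs were searched on both strands and compared with 35116 RefSeq windows of the same length. The E-box CACGTG, which MYC and related factors bind, stood 4 times in the BAX window, and its second copy overlaps a match to the antioxidant response element core TGACNNNGC. At least 1 E-box was in 6.35% of all windows, and 5 windows (0.0142%), that of BAX among them, held 4 or more. The cut-off of 4 was taken from the BAX window itself, so this share is not a test. The BBC3 window held 1 E-box. The CCAAT box (CCAAT, written ATTGG on the other strand) was in the BAX and BBC3 windows and in 32.0% of all windows, and the GC box GGGCGG was in the BAX window and in 42.6%. The BCL2A1 window held a TATA box (TATAAA; 10.7% of windows) and, 1 base further on, a match to the C/EBP-ATF response element (TGATGNAAN; 3.13%). Among the members, the FOXO site TGTTTAC was found for BCL2L11 (2.98% of windows) and the kappaB site for 0 of 9 (9.96% of windows). A p53 half-site was found for 1 of 9, BAK1 (5.57% of windows). The antioxidant core was in 10.9% of windows. A match is a run of letters, not a site shown to be bound.

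The survival side was carried by 2 genes. BCL2L1 (ENSG00000171552; GRCh38 chromosome 20, 31664452 to 31723989) was the most abundant member in both libraries, at 186 FPKM in Control (3820 reads) and 239 FPKM in CEL (5705 reads). It was 1.29-fold higher in CEL (interval 1.24 to 1.34). MCL1 (ENSG00000143384; chromosome 1, 150574551 to 150579738), whose short-lived product must be made continually, was second at 145 FPKM (5240 reads) and 169 FPKM (7123 reads), 1.17-fold higher (1.13 to 1.21). Together they gave nearly all survival transcripts: of the summed survival FPKM, BCL2L1 held 55.8% in Control and 58.2% in CEL, and MCL1 held 43.4% and 41.2%. BCL2L1 shares 43.0% of its exonic bases with ABALON on the other strand. ABALON had 3 reads (Control) and 10 reads (CEL). Since the strand setting of the counting is not known here, the level of BCL2L1 is uncertain.

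The gene that names the family was sparse. BCL2 (ENSG00000171791; chromosome 18, 63123346 to 63320128) stood at 2.53 FPKM in Control (187 reads) and 2.36 FPKM in CEL (202 reads), with a ratio of 0.931 whose counting interval (0.759 to 1.14) holds 1. Its log2 fold was −0.07, and 0.05 once a trend with gene length was removed. It held 0.761% and 0.574% of the survival FPKM. BCL2A1 (ENSG00000140379; chromosome 15, 79960892 to 79971196), a survival gene known as a target of NF-kappaB, had 1 read in Control (0.0849 FPKM) and 0 in CEL. At its length a count of 0 allows up to 0.220 FPKM in CEL, so a difference in BCL2A1 was not detectable at this depth and no fold is given.

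**Figure D1:**
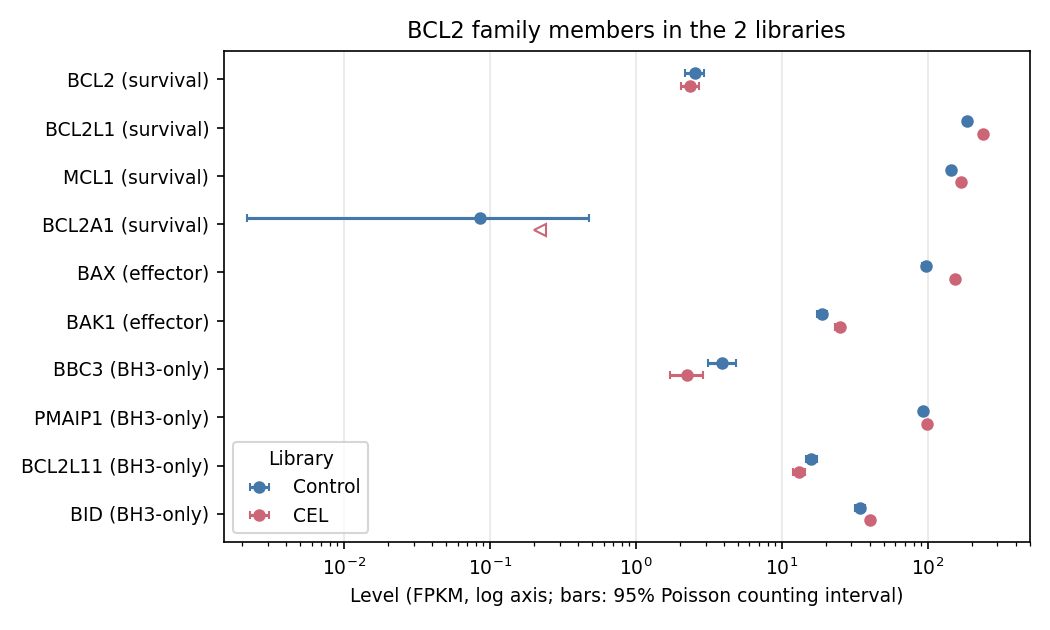
Level of each member in FPKM (log axis) in the Control library (blue) and the CEL library (red), with 95% Poisson counting intervals as bars; the open triangle marks the limit that a count of 0 allows for BCL2A1 in CEL. BCL2L1 and MCL1 lead at 145 to 239 FPKM, BCL2 lies below 3 FPKM and BCL2A1 near 0, and the points of BAX and BBC3 lie apart in opposite directions.

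Both effectors were higher in CEL, in sign also under each of the 9 other processing settings tried. BAX (ENSG00000087088; chromosome 19, 48954815 to 48961798) had the largest excess of any member, at 97.3 FPKM in Control (1011 reads) and 154 FPKM in CEL (1852 reads), or 1.58-fold higher (1.46 to 1.71). Once the trend with gene length was removed, BAK1, BCL2L1 and MCL1 had larger excesses than BAX. BAK1 (ENSG00000030110; chromosome 6, 33572547 to 33580293) stood at 18.8 FPKM (604 reads) and 24.9 FPKM (928 reads), 1.32-fold higher (1.19 to 1.47). BAX made up 83.8% of the summed effector FPKM in Control and 86.1% in CEL. Rows named as BAK1 pseudogenes held few reads, 8 and 5 for BAK1P1 and 1 and 6 for BAK1P2, but near copies can take reads from the parent gene, so BAK1 is uncertain to that extent.

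The BH3-only members went both ways. BBC3 (ENSG00000105327; chromosome 19, 47220822 to 47232766), whose product PUMA binds all survival proteins, was the lowest relative to Control, at 3.91 FPKM (89 reads) and 2.24 FPKM (59 reads). It was 1.75-fold lower in CEL (1.25 to 2.48). BCL2L11 (ENSG00000153094; chromosome 2, 111119378 to 111168445) was also lower, at 15.9 FPKM (531 reads) and 13.1 FPKM (509 reads), a 1.21-fold difference (1.07 to 1.37). It shares 10.9% of its exonic bases with MIR4435-2HG on the other strand, which had 1138 reads in Control and 2073 in CEL, so reads of these genes may not have been told apart.

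PMAIP1 (ENSG00000141682; chromosome 18, 59899996 to 59904305), whose product NOXA pairs mainly with MCL1, was by far the most abundant BH3-only member. It stood at 92.3 FPKM in Control (1809 reads) and 99.3 FPKM in CEL (2257 reads), with a ratio of 1.08 (1.01 to 1.14). It held 63.0% and 64.0% of the summed BH3-only FPKM. BID (ENSG00000015475; chromosome 22, 17734138 to 17774770) was at 34.3 FPKM (760 reads) and 40.5 FPKM (1040 reads), a ratio of 1.18 (1.07 to 1.30).

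In order of level, Control ran from BCL2L1 through MCL1, BAX, PMAIP1, BID, BAK1, BCL2L11, BBC3 and BCL2 to BCL2A1. The counting intervals of neighbours overlapped only for BAX and PMAIP1. In CEL the order was the same down to BCL2L11, after which BCL2 and BBC3 traded places with overlapping intervals, and BAX and PMAIP1 no longer overlapped. Against the 13745 named genes that reached 1 FPKM in either library, BCL2L1 lay at percentile 95.8 of level in Control and 96.7 in CEL, while BCL2 lay at 18.8 and 19.3.

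Most members differed little between the libraries. A gene was called where (CEL FPKM + 1)/(Control FPKM + 1) was at least 1.5-fold from 1, among genes that reached 1 FPKM in either library. This scale understates low genes. Of the 10 members, 9 passed that filter and BCL2A1 did not. BAX was called higher (1 of 9, against 8.97% of all 13745 genes), with a log2 fold of 0.65. BBC3 was called lower (1 of 9, against 10.2%), at −0.60 and so close to the threshold of 0.58. It was no longer called with a pseudocount of 5 FPKM (−0.30) or after correction for GC content (−0.58). The other 7 lay within 1.5-fold, and 0 of 9 were 2-fold higher or lower, against 2.70% and 3.24% of all genes. Shares of this size are near the background, so the counts mark nothing particular to the members. The median log2 fold was 0.23 over the 9 members and 0.00 over all genes. Among all genes, the log2 fold of BAX lay at percentile 92.9 and that of BBC3 at percentile 9.72, with BAK1 at 82.5, BCL2L1 at 80.9 and BCL2L11 at 26.9.

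**Figure D2:**
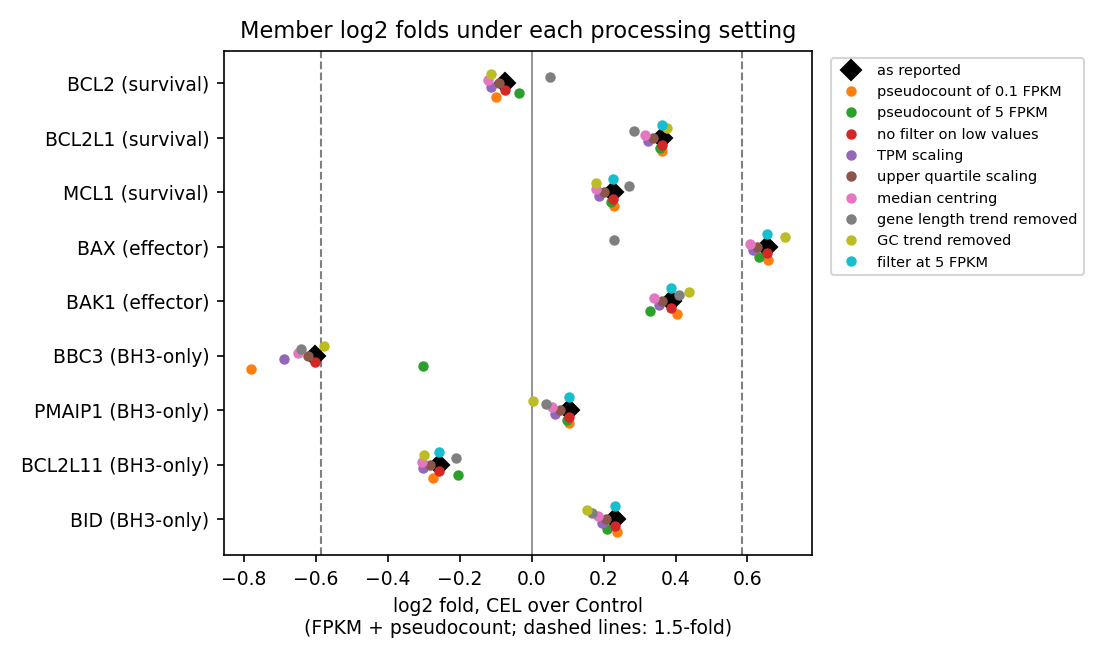
The log2 fold of the 9 measured members, CEL over Control, as reported (black diamonds) and under up to 9 other processing settings (coloured dots), with dashed lines at 1.5-fold. Most dots sit close to their diamond; BAX drops from 0.65 to 0.23 when the trend with gene length is removed, and BBC3 ranges from −0.78 to −0.30 with the pseudocount.

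BAX is a short gene. In these libraries short genes tended to be higher in CEL, and BAX, with a deposited length of 700 bases, is the shortest member. The 228 protein-coding genes of 630 to 770 bases at 10 FPKM or more had a median log2 fold of 0.37, and BAX lay at percentile 77.2 among them. The trend for BAX was taken as 0.42, the value of the shortest of 20 length bins, which is above that median of 0.37. With the trend removed the log2 fold of BAX was 0.23, below 1.5-fold. All genes then split into 836 higher and 1784 lower instead of 1233 and 1398. BAK1, at 2171 bases, lay at percentile 89.0 among the 974 genes of its own length and kept a log2 fold of 0.41. BCL2L1 (0.28) and MCL1 (0.27) then also lay above BAX. BBC3 lay at percentile 6.29 among 1351 genes of its length and was at −0.64 without the trend. Those genes and the trend were both restricted to protein-coding genes at 10 FPKM or more. BBC3 (3.91 and 2.24 FPKM) and BCL2 (2.53 and 2.36 FPKM) did not reach that level. What the trend stems from was not tested.

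**Figure D3:**
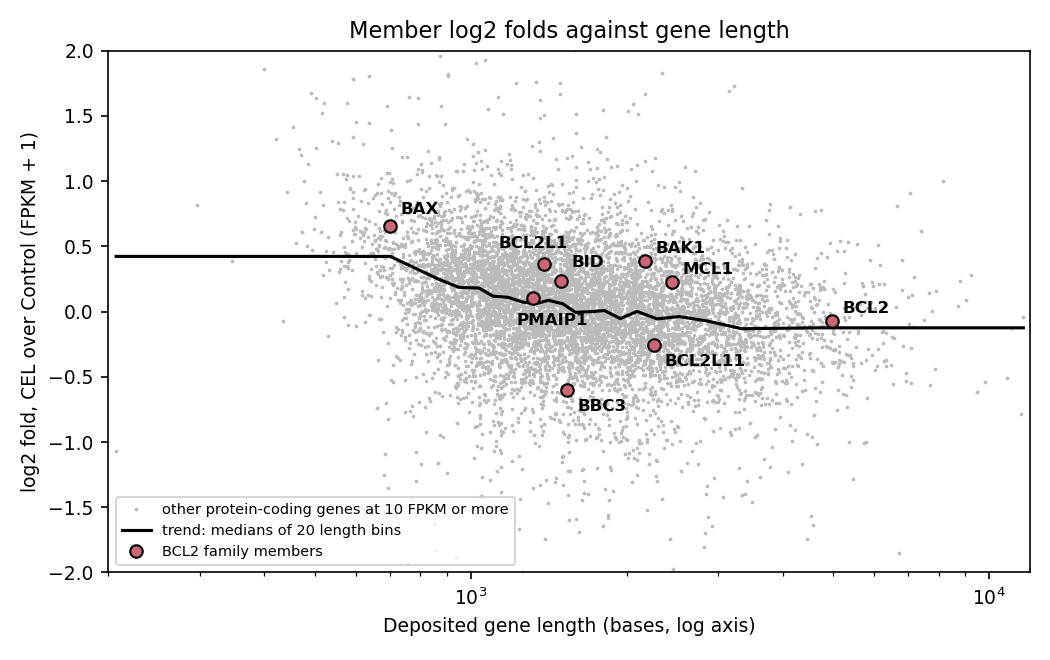
The log2 fold, CEL over Control, against deposited gene length in bases (log axis) for 8170 protein-coding genes at 10 FPKM or more (grey, 21 lie outside the axes), with the median trend over 20 length bins (line) and the 9 measured members (red). BAX sits at the short end where the trend is highest, BAK1 and MCL1 lie above the line and BBC3 and BCL2L11 below it.

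The balance between death and survival genes can be read within each library, where the library total has no part. BAX stood at 38.4 times the FPKM of BCL2 in Control and 65.1 times in CEL, so this ratio was 1.70-fold higher in CEL (exact interval of the odds ratio of reads 1.36 to 2.11). With the length trend removed it was 1.16. BCL2 was scarce, however, and against the abundant survival genes BAX was below 1 in both libraries: 0.524 and 0.642 of BCL2L1, and 0.673 and 0.907 of MCL1. Those ratios were 1.23-fold (1.12 to 1.34) and 1.35-fold (1.24 to 1.47) higher in CEL. With the length trend removed they were 0.965 and 0.975, close to 1, so no direction is read from them under that setting.

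Of the 24 ratios of a death gene to a survival gene, 18 had reads throughout and the 6 with BCL2A1 gave no value. CEL over Control they ran from 0.444 (BBC3 to BCL2L1; 0.313 to 0.626) to the 1.70 of BAX to BCL2. Of the 18, 9 were above 1 and 9 below. With the length trend removed, an alternative chosen after the data were seen, 6 were above 1 and 12 below; BAX to BCL2L1, BAX to MCL1 and BID to MCL1 changed side. The counting interval lay above 1 for 6 and below 1 for 7, and held 1 for 5. As reported, without that correction, the intervals above 1 belonged to the ratios with BAX, to BAK1 against BCL2 and MCL1, and to BID against BCL2. Those below 1 belonged to the ratios with BBC3, and to PMAIP1 and BCL2L11 against BCL2L1 and MCL1. The ratio of PMAIP1 to MCL1, the gene of its main partner, was 0.639 in Control and 0.586 in CEL, 0.918 times as high (0.854 to 0.986). The ratio of BID to MCL1 was 1.01 (0.910 to 1.11). These ratios share members and are not independent of each other. Summed over each role, survival members had 333 FPKM in Control and 411 in CEL (1.23-fold), effectors 116 and 178 (1.54-fold), and BH3-only members 146 and 155 (1.06-fold).

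**Figure D4:**
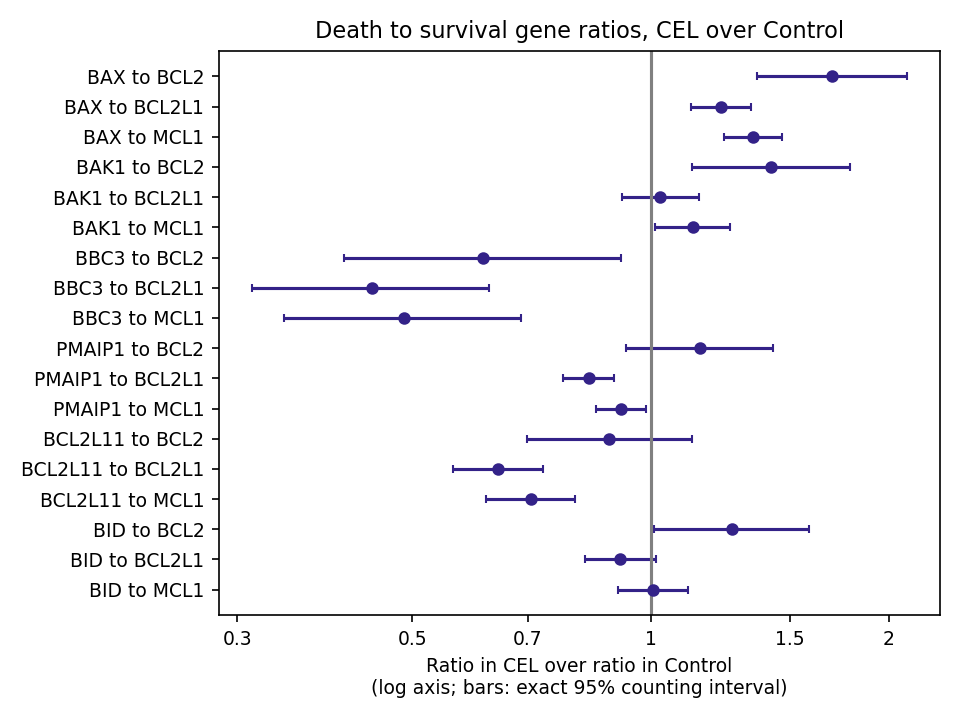
Ratio of each death gene to each survival gene in CEL divided by the same ratio in Control (log axis), with exact 95% counting intervals as bars. The 3 BAX ratios lie above 1, from 1.23 to 1.70, though with the length trend removed those to BCL2L1 and MCL1 were 0.965 and 0.975; the 3 BBC3 ratios lie below it, from 0.444 to 0.614.

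Other relatives gave a similar picture. Of 13 further family genes, 9 passed the filter, and their median log2 fold was 0.18. Of these, 0 were called higher (against 8.97% of all genes) and 1, BMF, was called lower (11.1%, against 10.2%). BMF, a BH3-only gene whose product is tied to the cytoskeleton until stress releases it, was at 5.90 FPKM (122 reads) and 3.04 FPKM (73 reads), 1.94-fold lower (1.44 to 2.63), and was not called with a pseudocount of 5 FPKM. BAD, another BH3-only gene, was at 2.74 FPKM (26 reads) and 4.54 FPKM (50 reads), a ratio of 1.66 (1.01 to 2.77) just short of the rule. It shares 23.6% of its exonic bases with GPR137 on the other strand, so its level is uncertain. BIK rested on 17 and 11 reads. BNIP3, which directs mitochondria to autophagy, was at 141 and 193 FPKM, 1.37-fold higher (1.31 to 1.42). BCL2L10, BCL2L14, BCL2L15 and HRK were under the filter, the first 2 at 0 reads.

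Downstream of the pores, 3 genes whose proteins leave the mitochondrion were higher and APAF1, the scaffold that responds, was lower. Of 13 mitochondrial pathway genes, all passed the filter, 3 were called higher (23.1%, against 8.97% of all genes) and 1 lower (7.69%, against 10.2%), with a median log2 fold of 0.25. CYCS, cytochrome c itself, was at 108 FPKM (3084 reads) and 173 FPKM (5728 reads), 1.60-fold higher (1.53 to 1.67). HTRA2, a released protease, was at 12.4 and 24.4 FPKM, 1.97-fold higher (1.68 to 2.30), and the nuclease gene ENDOG at 3.24 and 5.79 FPKM, 1.79-fold higher (1.28 to 2.51). ENDOG was not called with a pseudocount of 5 FPKM or without the length trend (log2 fold 0.56). HTRA2 shares 36.9% and ENDOG 39.3% of exonic bases with genes on the other strand, so both are uncertain. APAF1, which cytochrome c assembles into the apoptosome, was at 18.2 FPKM (941 reads) and 11.3 FPKM (680 reads), 1.61-fold lower (1.45 to 1.77), and was no longer called without the length trend (log2 fold −0.51) or with a pseudocount of 5 FPKM. AIFM1, which encodes another released protein, and the initiator caspase gene CASP9 were within 1.5-fold. DIABLO, whose product is also released, was not called but rested on 28 and 34 reads. Its ratio was 1.05, with an interval (0.616 to 1.79) that reaches past 1.5-fold. Other genes share 29.6% of its exonic bases on the same strand and 14.3% on the other, so its level is uncertain.

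**Figure D5:**
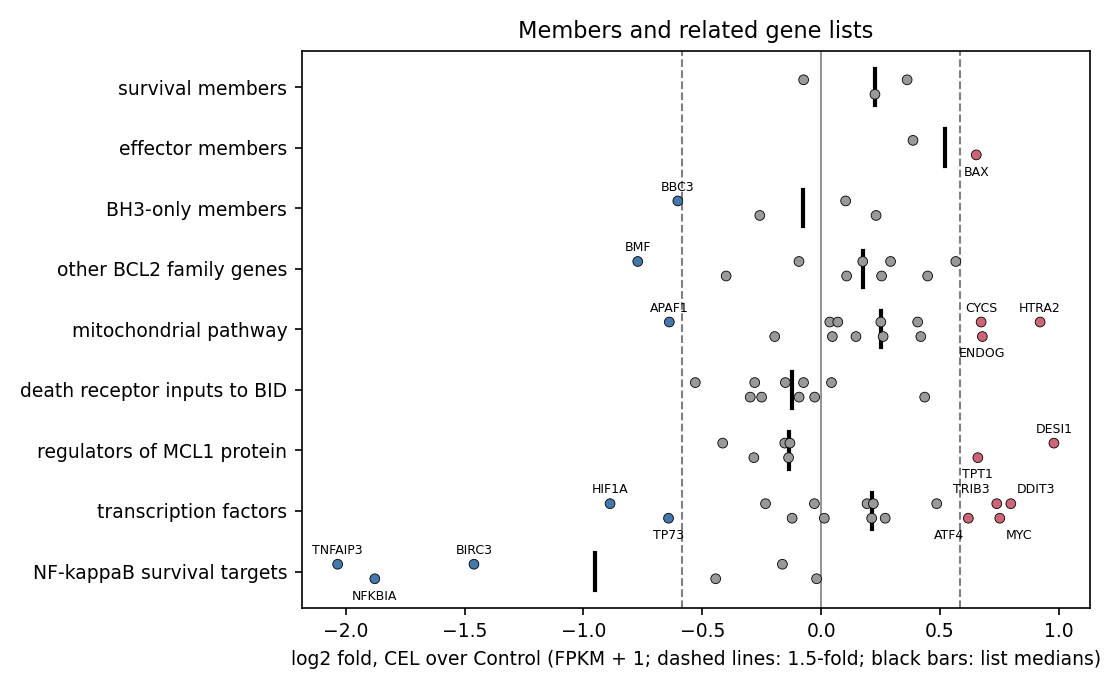
The log2 fold, CEL over Control, of each gene that passed the filter in the member groups and in 6 related lists (dots; red called higher, blue called lower, grey within 1.5-fold), with list medians as black bars. Effector members centre on 0.52, BH3-only members on −0.08, and BIRC3, NFKBIA and TNFAIP3 lie beyond −1.

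Upstream of BID, 0 of 10 death receptor pathway genes were called, against 8.97% of all genes higher and 10.2% lower. CASP10, a caspase of the receptor complex, came closest to the rule at 6.14 and 3.95 FPKM (log2 fold −0.53). It was called lower with a pseudocount of 0.1 FPKM and under TPM scaling. TNFRSF10A, a TRAIL receptor, was at 17.1 and 23.5 FPKM (0.44). It shares 16.6% of its exonic bases with genes on the other strand, so its level is uncertain. CASP8, the caspase that cuts BID, was at 45.5 and 47.0 FPKM. CFLAR, its inhibitor, was at 40.8 and 33.0 FPKM (−0.30). CFLAR shares 10.05% of its exonic bases with genes on the other strand and is uncertain too. The adaptor gene FADD was at 12.5 and 10.1 FPKM (−0.28) and shares 54.9% of its exonic bases with a gene on the other strand, so it is uncertain.

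Among 8 genes listed as acting on MCL1 protein, 7 passed the filter, with a median log2 fold of −0.14. Of these, 2 were called higher (28.6%, against 8.97% of all genes) and 0 lower (against 10.2%). TPT1, whose product binds and stabilises MCL1, was at 94.8 and 150 FPKM, 1.59-fold higher (1.502 to 1.675), and just missed the call without the length trend. DESI1, a deSUMOylating enzyme that stood on the list although an action on MCL1 is not certain, was at 26.5 and 53.2 FPKM, 2.01-fold higher (1.82 to 2.22). HUWE1, a ubiquitin ligase for MCL1, was at 148 and 111 FPKM, 1.34-fold lower (1.30 to 1.38). USP9X, which removes ubiquitin from MCL1, was at 148 and 133 FPKM.

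Of 16 genes listed as regulators of member genes, 15 passed the filter, with 4 called higher (26.7%, against 8.97% of all genes) and 2 lower (13.3%, against 10.2%). MYC was at 45.1 FPKM (1111 reads) and 76.7 FPKM (2191 reads), 1.70-fold higher (1.58 to 1.83). E-boxes stood in the windows of BAX and BBC3 and in some of those of BID. In CEL, BAX and BID were higher and BBC3 was lower, and whether MYC acted on any of them was not tested. ATF4 was at 78.7 and 122 FPKM, DDIT3 at 2.41 and 4.93 FPKM, and TRIB3 at 16.3 and 27.8 FPKM. TRIB3, a pseudokinase that ATF4 and DDIT3 induce, stood on the list although a direct action on a member gene is not certain. All of these belong to the integrated stress response, which is known to act on PMAIP1 and BBC3. ATF4 was not called under TPM scaling or median centring, and DDIT3 was not called with a pseudocount of 5 FPKM or without the length trend (log2 fold 0.57). A filter at 5 FPKM left DDIT3 out. DDIT3 shares 31.6% of its exonic bases with genes on the other strand and is uncertain. Lower were HIF1A, the hypoxia factor, at 353 and 190 FPKM, and the transcription factor TP73 at 3.58 and 1.94 FPKM. TP73 was not called with a pseudocount of 5 FPKM or without the length trend, and a filter at 5 FPKM left it out. TP63, a relative of TP73, was the regulator under the filter, at 0.768 FPKM (24 reads) and 0.0827 FPKM (3 reads), or 0.108 times as high in CEL (0.0208 to 0.355). It was called lower with no filter and under TPM scaling.

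BCL2A1 could not be followed, but other genes that NF-kappaB controls, both survival genes and its feedback inhibitors, were measured. Of 6, 3 were called lower (against 10.2% of all genes) and 0 higher. These 3 were also at least 2-fold lower, which 3.24% of all genes were. The list was chosen with earlier results of these data known, so these shares are not a test. BIRC3, which encodes the inhibitor of apoptosis cIAP2, was at 32.0 FPKM (1656 reads) and 11.0 FPKM (660 reads), 2.91-fold lower (2.66 to 3.19). The feedback inhibitors NFKBIA (152 and 40.7 FPKM) and TNFAIP3 (20.8 and 4.33 FPKM) were 3.74-fold (3.43 to 4.09) and 4.81-fold (4.05 to 5.74) lower. The subunit genes NFKB1 and RELA were within 1.5-fold. BIRC2, TRAF1 and TRAF2 were within 1.5-fold too.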

How the data were processed

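A pair of libraries, 1 per group, was taken from a table in which the authors deposited FPKM and a gene length for 60978 genes. Per the submitters' processing notes, HTSeq 0.5.4 and GRCh38 were used; for the aligner, annotation release and strand setting, nothing is given in the sources used here. The authors deposited 1 length per gene as another measurement, and how it was derived is not known. Whole reads were recovered from FPKM times length, at the printed length for 68.7% of the 24783 genes above 0 and as the pair of whole numbers that shared 1 length for the other 31.3% (relative tolerance 1e-06). Rows without a gene name (354; 0.298% of Control and 0.265% of CEL reads) were left out.

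Differences are log2((CEL FPKM + 1)/(Control FPKM + 1)), called at 1.5-fold among genes that reached 1 FPKM in either library. Single-gene folds are plain FPKM ratios with exact conditional binomial intervals, levels have Poisson intervals, and ratios between genes have the exact conditional interval of the odds ratio. A count of 0 allows 3 reads. Exon overlap and GC content came from GENCODE 29, with overlap computed for the listed genes. The 10 members are all named. From each other list, every gene called (past the filter and 1.5-fold) was named, or the 4 largest differences where none was; further genes of these lists were chosen with their values in view. A few listed genes are not reported here. The members and lists were chosen with earlier results of these data known, so a share called in a list, set beside that of all genes, is not a test. Steps were tested on simulated data. Software versions were Python 3.11.15, scipy 1.17.1, numpy 2.4.6, matplotlib 3.10.9 and pandas 2.3.3.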

Additional observations from a re-analysis of the deposited data

How the results depend on the processing

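With 1 library per group, no replicate could be left out. No paired analysis was possible because each group has 1 library. Of 79 member log2 folds recomputed under 9 alternatives, 78 kept their sign, the exception being BCL2 at 0.05 without the length trend. Members called higher fell to 0 without the length trend. Members called lower fell to 0 with a pseudocount of 5 FPKM and without the GC trend (BBC3 at −0.58). They were also 0 with a filter at 5 FPKM, which BBC3 did not pass. Other family genes called higher were 1 (BAD) with a pseudocount of 0.1 FPKM and without the GC trend, and those called lower were 2 with a pseudocount of 0.1 FPKM and 0 with 5 FPKM. Mitochondrial pathway genes called lower were 0 with a pseudocount of 5 FPKM and without the length trend. The ratio of BAX to BCL2, CEL over Control, was 1.16 without the length trend, and those of BAX to BCL2L1 and MCL1 were 0.965 and 0.975. The cause was not tested. Depth limits BCL2A1, BIK and HRK, which had 17 reads or fewer in each library.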
